A study of Mus musculus with 4 samples.

Results

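The genes described here are a list of 38 interferon-stimulated genes, named by symbol, of which 37 were matched among the 31053 genes of the deposited single-cell table. Mx2 was not analysed here. The 37 genes were read as raw unique molecular identifier (UMI) counts, where a UMI is a tag that marks 1 captured RNA molecule, in 13 cell types set by marker genes. The list holds transcription factors (Irf7, Irf9, Stat2), sensors of foreign RNA and DNA (Ddx58, Ifih1, Dhx58, Zbp1, Ifi204), the IFIT, OAS and MX families, the ISG15 system (Isg15, Usp18, Herc6), 9 other antiviral genes and 8 GTPases of the GBP and IRG families.

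The cells came from colon polyps of female C57BL/6 mice. Polyps were induced with the carcinogen azoxymethane (AOM, 12.5 mg/kg) and 3 cycles of the colitis-inducing agent dextran sulphate sodium (DSS, 2.5% in the first cycles and 2% in the last), and tissue was taken 30 days past the final cycle. The 4 labelled samples were CD45+ immune and CD45- non-immune cells from Egfr fl/fl control mice, and the same 2 sorts from EgfrΔMYL mice, in which Egfr is deleted in the myeloid lineage. Cells were sorted after staining for CD45 and EPCAM. The labels name no Cre driver, no age and no number of mice, and each group is 1 sample, with all groups sharing the AOM and DSS treatment. The deposited matrix pools 4 libraries, told apart only by a numeric barcode suffix, and no suffix could be matched to a labelled sample. The libraries are therefore called library 1 to library 4, genotypes and sorts were not compared, and cell types are compared within the pooled matrix with no p-value.

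The matrix held 129529250 UMIs in 18026 barcodes, of which 14198 passed the cell filter and 11307 fell in exactly 1 marker gate. Libraries 1 and 2 stood apart. They lost 59.0% and 56.3% of their barcodes to the filter, against 8.75% and 4.45% in libraries 3 and 4, and haemoglobin transcripts made up 8.90%, 0.981%, 0.00121% and 0.0207% of the UMIs kept in libraries 1 to 4. Libraries 1 and 2 gave 1456 of 1529 epithelial, 61 of 62 stromal, 57 of 61 erythroid and 42 of 52 basophil cells, and libraries 3 and 4 gave most cells of the other types. Cells of each type carried a median of 4 to 9 markers of their own list and at most 3 of any other. The gates use these same markers, so they largely fix these medians in advance and the medians are no check on the gates. Median depth ran from 2951 UMIs in neutrophils to 32421 in plasma cells. Only 14 barcode sequences of kept cells occurred in more than 1 library.

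Interferons are secreted proteins that cells release on sensing virus, bacteria or misplaced nucleic acid. Type I and type III interferons signal through JAK kinases to a complex with STAT2 and IRF9 that binds the interferon-stimulated response element (ISRE), and type II interferon (interferon gamma) signals to factors that bind the gamma-activated site (GAS). The genes switched on by these routes block viral replication, attack vacuoles that hold microbes and feed back on signalling. In the gut the program is known from infection, from colitis and from tumours, where it can be active in immune and in epithelial cells.

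The promoters of 6 members on which the results below turn are printed to show the motifs these routes are known to use, as 160-base stretches from RefSeq (GRCm38.p6, the assembly of mm10), 5′ to 3′ on the gene's strand. Capitals mark each pair of GAAA separated by 2 bases, or of TTTC on the reverse strand (called ISRE-type), and each TTC and GAA separated by 3 bases, which reads the same on both strands (called GAS-type), and neighbouring or overlapping matches run together. Isg15 (chr4:156200819-156200978, minus strand), Rsad2 (chr12:26456453-26456612, minus), Ifit3 (chr19:34583369-34583528, plus), Bst2 (chr8:71537473-71537632, minus), Gbp7 (chr3:142530176-142530335, plus) and Igtp (chr11:58199396-58199555, plus) are given in that order, and none of the stretches overlapped an annotated exon.
Isg15: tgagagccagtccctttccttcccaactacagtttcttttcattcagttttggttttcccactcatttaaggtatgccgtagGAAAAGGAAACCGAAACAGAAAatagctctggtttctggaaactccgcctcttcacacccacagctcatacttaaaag
Rsad2: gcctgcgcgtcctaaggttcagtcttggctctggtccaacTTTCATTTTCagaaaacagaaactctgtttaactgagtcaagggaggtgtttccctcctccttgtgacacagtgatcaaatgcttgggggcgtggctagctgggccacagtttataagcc
Ifit3: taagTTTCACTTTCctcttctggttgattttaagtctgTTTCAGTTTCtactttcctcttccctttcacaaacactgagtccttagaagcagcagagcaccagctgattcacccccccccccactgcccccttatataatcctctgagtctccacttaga
Bst2: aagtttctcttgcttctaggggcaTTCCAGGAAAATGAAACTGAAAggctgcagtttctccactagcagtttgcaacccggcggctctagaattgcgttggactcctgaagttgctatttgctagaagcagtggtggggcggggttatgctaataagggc
Gbp7: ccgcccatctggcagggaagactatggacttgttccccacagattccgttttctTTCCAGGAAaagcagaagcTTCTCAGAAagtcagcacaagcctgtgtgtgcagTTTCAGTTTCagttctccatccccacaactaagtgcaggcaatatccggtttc
Igtp: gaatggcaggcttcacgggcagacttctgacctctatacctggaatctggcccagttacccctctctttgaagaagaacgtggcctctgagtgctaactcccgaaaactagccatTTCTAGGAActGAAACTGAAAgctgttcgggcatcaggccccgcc
Isg15 had 3 overlapping ISRE-type matches and no GAS-type match in its stretch, Rsad2 had 1 and Ifit3 had 2, whereas Bst2, Gbp7 and Igtp had matches to both motifs.

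In the window from 250 bases before to 50 bases after the start of transcription, searched on both strands, 18 of 32 promoters of the 28 members found in the promoter table held an ISRE-type match (56.2%), against 1131 of all 32851 promoters (3.44%). GAS-type matches were in 7 of the 32 (21.9%), against 2726 of all promoters (8.30%). Among roles, 6 of 7 GTPases with an entry held an ISRE-type match and 3 held a GAS-type match. Both motifs were found in 5 members, namely Bst2, Gbp5, Gbp7, Igtp and Oas1a. A match describes letters in the window only. Dhx58, Zbp1, Ifi204, Oas2, Mx1, Usp18, Rtp4, Parp14 and Iigp1 had no entry.

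Levels are given as CPM, the UMIs of a gene, or of the 37 members summed, per 1000000 UMIs of that cell type, with a 95% exact Poisson interval that covers counting error only. UMIs are read near the 3′ end of a transcript, so CPM was compared between genes with no length correction. A member was called higher in a type when its CPM plus 1 was at least 2-fold above the unweighted mean of the other 12 types and it had at least 10 UMIs there, and lower when it was at least 2-fold below and at least 10 UMIs would have been seen at the others' level. The share of all 13474 expressed genes called by the same rule is given beside each count, because cell types differ in how many of their genes stand out.

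Plasmacytoid dendritic cells, neutrophils and stromal cells had the highest summed member levels, and mast, plasma and B cells the lowest. The sum was 4949.6 CPM (4802 to 5100.4) in 93 plasmacytoid dendritic cells, 3604 CPM (3563 to 3645) in 2492 neutrophils and 3482 CPM (3265 to 3710.2) in 62 stromal cells. It was 2453 CPM in 1965 monocytes and macrophages, 1854 CPM in 498 dendritic cells and 1376 CPM in 2515 T cells. The epithelial sum was 1249 CPM in 1529 cells, and the natural killer sum was 1231 CPM in 58 cells. The sum was 1111 CPM in 52 basophils, 686 CPM in 61 erythroid cells, 601 CPM in 1461 B cells, 547 CPM in 442 plasma cells and 494 CPM in 79 mast cells. In this order the intervals of neighbours overlapped for neutrophils and stromal cells, epithelial and natural killer cells, natural killer cells and basophils, and plasma and mast cells. The first place rested on Bst2. Without it, plasmacytoid dendritic cells had 1371 CPM and plasma cells 171 CPM.

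**Figure D1:**
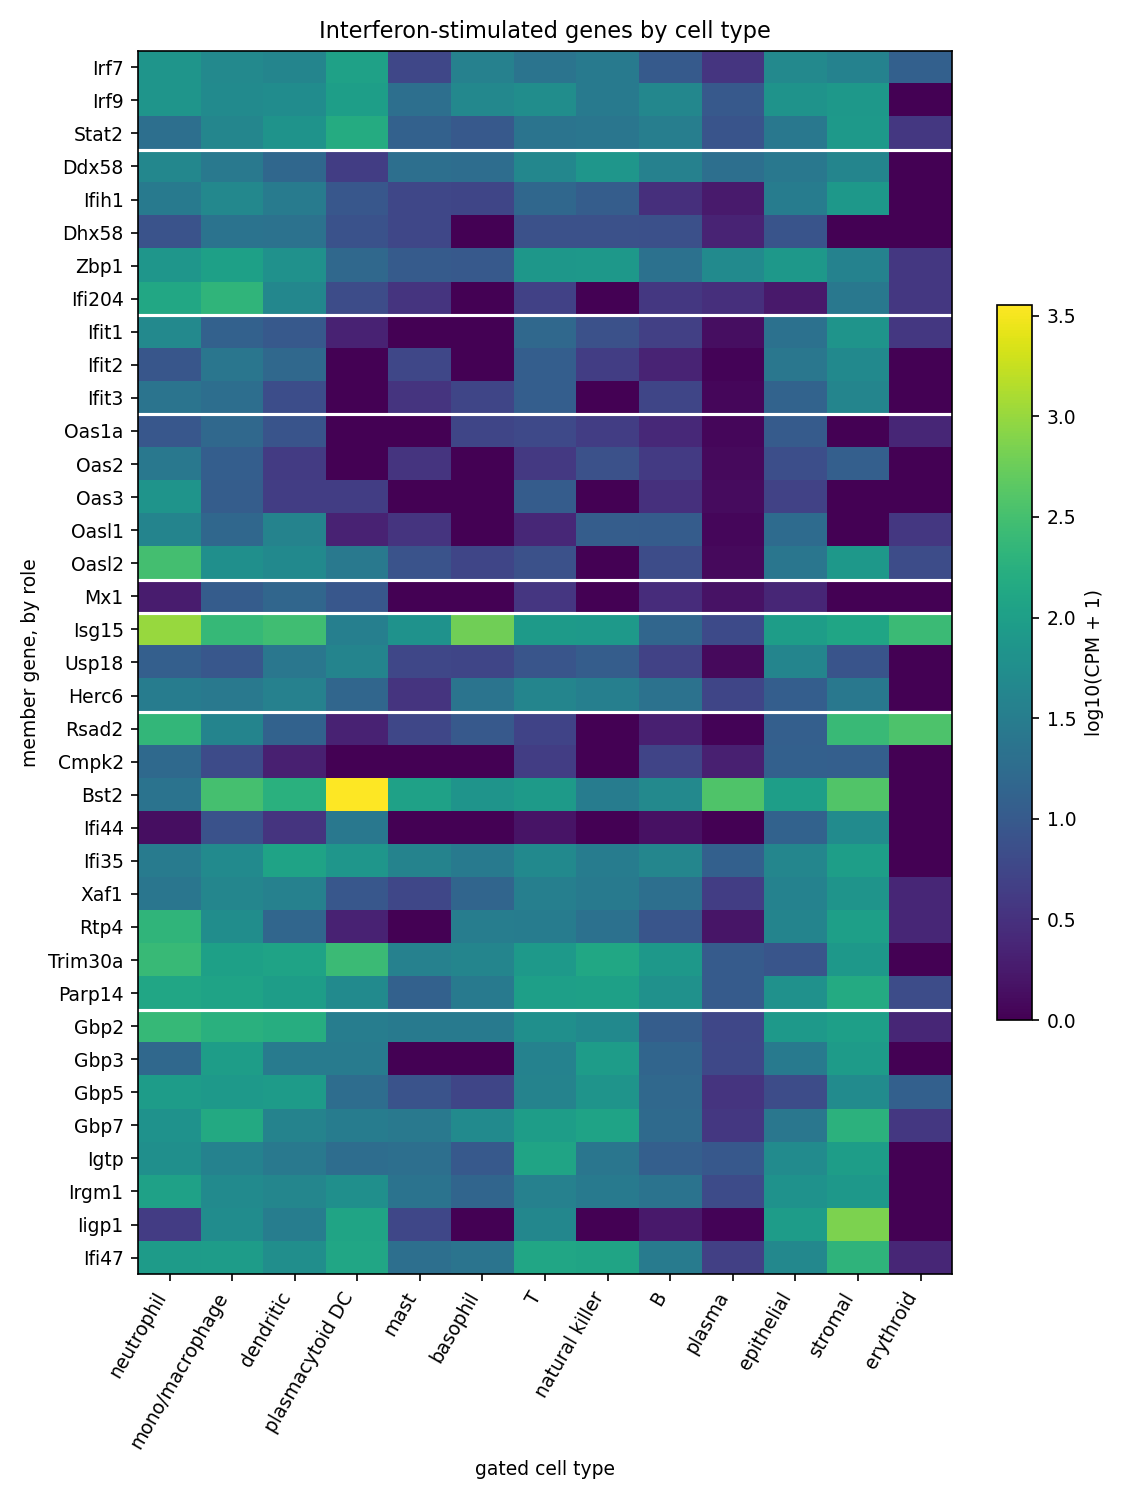
Level of each of the 37 members (rows, grouped by role) in each of the 13 marker-gated cell types (columns), as log10 of summed CPM plus 1 in the colour scale. Bst2 in plasmacytoid dendritic cells, at 3578 CPM, and Isg15 in neutrophils, at 1027 CPM, are the brightest entries, and the plasma and erythroid columns are mostly dark.

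The 37 members reached their highest level in 9 different types. Neutrophils and stromal cells each held the highest level of 10 members, monocytes and macrophages and plasmacytoid dendritic cells of 5 each, T cells and dendritic cells of 2 each, and epithelial, erythroid and natural killer cells of 1 each. Mast cells, basophils, B cells and plasma cells held none. The share of all genes highest in each type is not given, so these counts describe the members only. Some first places were not clear of the next type. Ifit1 was at 69.1 CPM (41.6 to 108) in the 62 stromal cells, overlapping the 45.6 CPM of neutrophils, and the intervals of the first 2 types also overlapped for Irf9 and Mx1. The balance between families also differed. The GTPases made up 43.6% of member UMIs in stromal cells, 39.8% in T cells and 39.5% in natural killer cells, but 18.5% in neutrophils, 8.61% in plasmacytoid dendritic cells and 2.46% in erythroid cells.

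**Figure D2:**
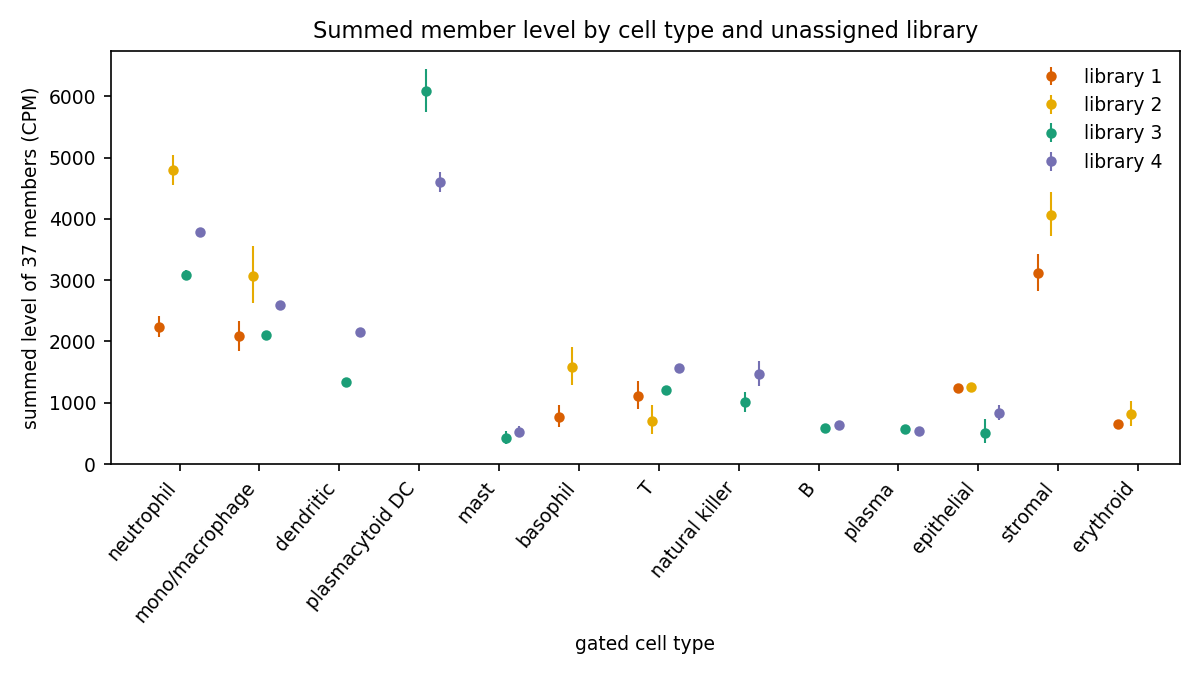
Summed CPM of the 37 members in each cell type (horizontal axis) for each library with at least 10 cells of the type, with 95% exact Poisson intervals as bars. Neutrophils spread from 2239 CPM in library 1 to 4793 CPM in library 2, and plasmacytoid dendritic cells stood at 6078 and 4594 CPM in libraries 3 and 4.

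In neutrophils, short-lived granulocytes that enter inflamed tissue early, 16 of 37 members were higher, against 6.98% of all genes, and 6 were lower, against 69.8%. The median log2 fold of the members was 0.72, and that of all genes was -1.63. Those higher were Irf7, Ifi204, Ifit1, Ifit3, Oas2, Oas3, Oasl1, Oasl2, Isg15, Rsad2, Cmpk2, Rtp4, Trim30a, Gbp2, Gbp5 and Irgm1. Isg15, a ubiquitin-like protein that is attached to other proteins and also secreted, made up 28.5% of their member UMIs. Its level was 491, 1419, 815 and 1105 CPM in libraries 1 to 4, so it was lowest in library 1 and highest in library 2. Over all libraries Isg15 stood at 1027 CPM (1005 to 1049) in neutrophils, with a log2 fold of 2.68. It was detected in 59.2% of neutrophils at a median of 2951 UMIs per cell, and in 30 of 442 plasma cells at a median of 32421 UMIs. Basophils came next at 609 CPM, and the median over types was 94.7 CPM.

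The OAS family, which senses double-stranded RNA and in part makes the messenger that activates RNase L, had 4 of its 5 members higher in neutrophils, all but Oas1a. Oas3 had the largest neutrophil fold of all members, with a log2 value of 4.18, and was at 38.6, 49.1, 86.0 and 63.4 CPM in libraries 1 to 4. Its 67.4 CPM (62.0 to 73.3) in neutrophils compared with 10.1 CPM in monocytes and macrophages, the next type. Oasl2, an OAS-like protein, was at 263, 384, 279 and 315 CPM, with a log2 fold of 3.75, and no UMI of it was seen in natural killer cells. These 4 libraries all stood above the 76.4 CPM of stromal cells, the next type for Oasl2. The near-identical copies Oas1a and Oas1g can share reads, so the Oas1a values are uncertain.

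Rtp4, Trim30a and Rsad2 were also higher in neutrophils. Rtp4, a chaperone that helps receptors reach the cell surface, was at 179, 298, 196 and 211 CPM in libraries 1 to 4 and had a log2 fold of 3.01. Trim30a, a TRIM protein that dampens innate signalling in mice, was at 151, 307, 245 and 249 CPM, and its total of 247 CPM overlapped the 261 CPM of plasmacytoid dendritic cells. Rsad2, which encodes viperin, the enzyme that makes a chain-terminating nucleotide, was at 94.7, 289, 171 and 249.5 CPM, and its total of 227 CPM was below that of erythroid (362 CPM) and stromal cells (255 CPM). In each of these genes library 1 was lowest and library 2 highest. Bst2, at 21.8 CPM, and Iigp1, at 3.26 CPM, were lower in neutrophils than the mean of the other types, with log2 folds of -4.27 and -4.38. That mean rests largely on plasmacytoid dendritic cells for Bst2 (3578 CPM) and on stromal cells for Iigp1 (713 CPM), and the medians over types were 97.9 and 4.75 CPM. Stat2, Mx1, Ifi44 and Gbp3 were the other members lower there.

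In monocytes and macrophages, the phagocytes that take up microbes and dead cells, 11 of 37 members were higher, against 7.93% of all genes, and none was lower, against 24.2%. The medians were 0.40 for the members and -0.24 for all genes. Of the 5 sensors, 4 were among those higher. Ifi204, a DNA sensor of the p200 family, was at 256, 211, 147 and 236 CPM in libraries 1 to 4, the first 2 of which held 10 and 11 of these cells. Its total of 211 CPM (205 to 217) exceeded the 134 CPM of neutrophils, and its log2 fold was 3.44, although reads of the p200 genes can be split among close copies. Dhx58, a helicase that tunes RNA sensing, was at 21.0 and 22.0 CPM in libraries 3 and 4, level with the 21.0 CPM of dendritic cells. Oas1a was at 19.9 and 13.1 CPM in those libraries. Zbp1, a sensor of Z-form nucleic acid that can trigger cell death, reached 105 CPM, and Ifih1 (MDA5) and Mx1 were also higher, as were Ifit2, Gbp2, Gbp3, Gbp5 and Gbp7.

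Bst2 had most UMIs among members in these cells, 12.9% of the sum, at 331 and 314 CPM in libraries 3 and 4. Isg15 was next, at 170.2 and 269 CPM. For Bst2 the libraries were close, while Isg15 and Ifi204 were higher in library 4.

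In dendritic cells, which carry antigen to T cells, 7 members were higher, against 6.64% of all genes, and 7 were lower, against 25.9%. The medians were 0.23 and -0.25. Those higher were Dhx58, Oasl1, Mx1, Usp18, Ifi35, Gbp2 and Gbp5. Mx1, a dynamin-like GTPase that blocks influenza viruses, was scarce everywhere and highest here, at 15.5 and 12.2 CPM in libraries 3 and 4 and a log2 fold of 2.24. Its interval of 11.1 to 16.6 CPM overlapped that of monocytes and macrophages. Many laboratory strains, C57BL/6 among them, carry a defective Mx1 gene. Oasl1, which limits Irf7 translation, was at 15.2 and 50.9 CPM in libraries 3 and 4 and had a log2 fold of 2.08. A single cell held 41.9% of its UMIs, and the total of 37.5 CPM was 21.8 CPM without that cell. Isg15 was likewise higher in library 4, at 149 against 373 CPM, while Bst2 (179 and 173 CPM) and Gbp2 (147 and 173 CPM) differed less.

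In plasmacytoid dendritic cells, known as professional makers of type I interferon, 7 members were higher, against 11.8% of all genes, and 13 were lower, against 11.6%. The member median was -1.05 and that of all genes 0.00, so high sums and low medians went together. Bst2 (tetherin), which holds budding virus on the cell surface and is a known surface marker of these cells, was at 4795 and 3181 CPM in libraries 3 and 4. Its total of 3578 CPM (3453 to 3707) had a log2 fold of 4.64 and made up 72.3% of member UMIs, with the next type, stromal cells, at 386 CPM. It was detected in 92 of 93 cells at a median of 9661 UMIs, and in 0 of 61 erythroid cells at a median of 12189 UMIs, which allows up to 4.22 CPM there. All 3 transcription factors of the list were higher here. Stat2 was at 125 and 164 CPM, with a log2 fold of 2.39. Irf7, the factor that amplifies interferon alpha production, was at 107 CPM over all libraries, above the 70.6 CPM of neutrophils, and Irf9 was at 97.5 CPM, overlapping the 76.4 CPM of stromal cells. Usp18, Ifi44 and Trim30a completed the list, with Trim30a at 353 and 233 CPM and Ifi44 at 20.8 and 27.6 CPM.

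In T cells, 2 of 37 members were higher, against 7.30% of all genes, and 7 were lower, against 25.5%, with medians of -0.14 and 0.05. As in stromal, natural killer and epithelial cells, the GTPases held more member UMIs than any other role. The 3 members with most UMIs were Ifi47, Igtp and Parp14, of which Ifi47 and Igtp are IRG GTPases known to act against vacuolar pathogens and to respond to interferon gamma. Igtp was at 140, 58.4, 104 and 134 CPM in libraries 1 to 4, with 11 and 12 T cells in the first 2. Its total of 118 CPM (112 to 124) had a log2 fold of 1.96 and overlapped the 94.6 CPM of stromal cells. Herc6, the mouse ligase that attaches ISG15, was at 46.6, 19.5, 34.7 and 48.4 CPM, with a log2 fold of 1.09. Ifi47 was at 140, 97.4, 115 and 134 CPM and Parp14, an ADP-ribosyl transferase, at 58.2, 97.4, 76.9 and 128 CPM. Lower were Ifi204, Oasl1, Oasl2, Isg15, Rsad2, Bst2 and Ifi44.

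Natural killer cells, cytotoxic lymphocytes, had 2 members higher (Ddx58 and Gbp3), against 8.14% of all genes, and 6 lower, against 5.39%, with medians of -0.65 and -0.07. Gbp3, a guanylate-binding protein, was at 117 and 62.5 CPM in libraries 3 and 4 and Ddx58 (RIG-I), the sensor of short viral RNA, at 64.8 and 83.4 CPM. The 73.8 CPM of Ddx58 (46.2 to 112) lay above the 42.7 CPM of T cells. Trim30a, at 110 and 153 CPM, Ifi47, at 129.7 and 104 CPM, and Gbp7, at 110 and 118 CPM, had most UMIs there. These values rest on 58 cells, and 1 cell held 60% of the Isg15 UMIs.

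B cells had none of the 37 members higher, against 7.79% of all genes, and 22 lower, against 29.3%, with medians of -1.33 and -0.19. Trim30a led, at 80.9 and 68.0 CPM in libraries 3 and 4, followed by Parp14 and Bst2. Plasma cells, the antibody-secreting stage, had none higher, against 2.21%, and 34 lower, against 72.9%, with medians of -3.21 and -1.47. Bst2 made up 68.7% of their member UMIs, at 416 and 353 CPM, and Zbp1 was at 39.1 and 54.6 CPM. Mast cells had none higher, against 4.99%, and 19 lower, against 11.6%, with medians of -2.00 and -0.53. Among members with at least 10 UMIs there, Ifi35, Gbp7 and Trim30a had the largest log2 folds, all negative (-0.29, -1.26 and -1.40). Gbp7 and Trim30a were among the 19 called lower. Basophils had Isg15 alone higher, against 5.63%, and 9 members lower, against 6.91%, with medians of -1.99 and -1.11. Basophil Isg15 was at 371 and 934 CPM in libraries 1 and 2, and the 5 cells with most held 80.9% of its 136 UMIs.

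Epithelial cells, the lining and the tumour-forming compartment of the polyps, had 4 members higher, against 28.2% of all genes, and 7 lower, against 20.3%, with medians of 0.08 and 0.39. The 4 were Usp18, Cmpk2, Ifit2 and Oas1a. Usp18, the protease that removes ISG15 and also shuts off the type I interferon receptor, was at 23.4 and 47.8 CPM in libraries 1 and 2, which held 340 and 1116 of these cells, and had a log2 fold of 1.92. Its total of 40.9 CPM overlapped the 39.5 CPM of plasmacytoid dendritic cells. Cmpk2, a mitochondrial nucleotide kinase encoded next to Rsad2, was at 10.15 and 11.9 CPM, and Ifit2, which binds foreign RNA, at 23.9 and 24.85 CPM. The libraries were close for Cmpk2, Ifit2, Isg15 (95.2 and 95.35 CPM) and Iigp1 (87.9 and 91.7 CPM). Usp18, as given above, and Bst2 (56.3 and 115 CPM) were higher in library 2. Ifit3 was at 25.4 and 7.90 CPM, and a single cell held 40.6% of its epithelial UMIs.

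Stromal cells, here fibroblast and endothelial markers combined, had 17 members higher, against 15.0% of all genes, and none lower, against 5.37%, with medians of 0.98 and 0.35. They were Stat2, Ifih1, Ifit1, Ifit2, Ifit3, Rsad2, Ifi44, Ifi35, Rtp4, Parp14, Gbp3, Gbp7, Igtp, Irgm1, Iigp1, Ifi47 and Xaf1, a gene known to favour apoptosis. Iigp1, an IRG GTPase known to attack the vacuole of Toxoplasma, was at 676.5 and 813 CPM in libraries 1 and 2. Its total of 713 CPM (617 to 820) had a log2 fold of 4.59 and compared with 118 CPM in plasmacytoid dendritic cells and a median over types of 4.75 CPM. Iigp1 was detected in 30 of the 62 cells at a median of 3056 UMIs, where erythroid cells had it in 0 of 61 at a median of 12189. The 5 cells with most Iigp1 held 57.1% of its UMIs, and Iigp1 stood at 582 CPM without the cell that held most. Rsad2 lay in fewer cells, with 84.3% of its 70 UMIs in 5 cells. It was at 80.0 and 465.5 CPM in libraries 1 and 2, and a single cell held 50% of its UMIs, leaving 127 CPM without that cell. Bst2 was at 364 and 426 CPM. Ifi44, a GTP-binding antiviral protein, was at 72.7 and 31.6 CPM, with a log2 fold of 3.37, and Ifit1, which binds viral RNA that lacks a host cap, at 116 and 23.7 CPM, with a log2 fold of 2.72. These 2 rested on 14 and 19 UMIs, of which the 5 cells with most held 71.4% and 89.5%. Ifit3 had 11 UMIs, 45.5% of them in 1 cell. With 62 cells, 10 members had fewer than 10 UMIs and could not be called higher.

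Erythroid cells, gated on haemoglobin and other red-cell genes, had 1 member higher, against 0.571% of all genes, and 24 lower, against 51.9%, with medians of -3.53 and -3.25. That member was Rsad2, at 348 and 589.5 CPM in libraries 1 and 2, which held 37 and 20 of these cells. Its total of 362 CPM (319 to 409) made up 52.8% of their member UMIs and had a log2 fold of 2.92, with an interval that overlapped that of stromal cells. The 257 Rsad2 UMIs lay in 44 of 61 cells at a median of 12189 UMIs per cell, where epithelial cells, also mostly of libraries 1 and 2, had it in 62 of 1529 (4.05%) at a median of 6452, and without the cell that held most of them the level was 327 CPM. Isg15 was at 279.8 and 196.5 CPM in libraries 1 and 2, close to the 222 CPM mean of the other types, and 29.1% of it lay in a single cell. No UMI was seen for 20 members in these cells. Haemoglobin made up a median of 93.8% of the UMIs of an erythroid cell, and CPM is scaled by all UMIs, haemoglobin included.

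Genes upstream of the members were read from lists of the pathway. Of 15 interferon ligand genes, Ifng (interferon gamma) was higher in natural killer cells, at 342 CPM from 102 UMIs, and in T cells, at 183 CPM from 2684 UMIs. Ifnb1 (interferon beta) was higher in monocytes and macrophages, with 94 UMIs or 3.80 CPM, and had 5 UMIs in dendritic cells and 4 in neutrophils. None of the interferon alpha genes on the list had a UMI in any type. Of 6 receptor genes, Ifngr1 was highest in natural killer cells (1647 CPM) and T cells (759.9 CPM), Ifnar1 and Ifnar2 in plasmacytoid dendritic cells (544.5 and 284 CPM) and Ifngr2 in epithelial cells (196 CPM). Ifnlr1, the interferon lambda receptor, was higher in neutrophils (6.75 CPM) and epithelial cells (3.86 CPM).

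Of 12 signalling genes, between 0 and 4 were higher in a type, where the share of all genes called higher ran from 0.571% in erythroid to 28.2% in epithelial cells. Irf8, a factor needed for dendritic lineages, was at 2647 CPM in plasmacytoid dendritic cells and 841 CPM in dendritic cells, and Irf1 was at 775 CPM in neutrophils. Plasma, epithelial and erythroid cells had 11, 9 and 12 of the 12 lower, against 72.9%, 20.3% and 51.9% of all genes. Of 12 nucleic acid sensing genes, 6 were higher in monocytes and macrophages, against 7.93% of all genes (Tlr7, Tlr8, Ticam1, Mb21d1, Ikbke and Trim25), and Tlr7 was at 139 CPM in plasmacytoid dendritic cells.

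A further list held 69 interferon-stimulated genes that are no members, of which 65 were matched. Monocytes and macrophages had 18 higher, against 7.93% of all genes, and 10 lower, against 24.2%. Dendritic cells had 16 higher (6.64% of all genes) and 16 lower (25.9%), stromal cells 15 higher (15.0%) and 12 lower (5.37%), and neutrophils 12 higher (6.98%) and 24 lower (69.8%). T cells had 11 higher (7.30%) and 12 lower (25.5%), plasmacytoid dendritic cells 11 higher (11.8%) and 18 lower (11.6%), and natural killer cells 10 higher (8.14%) and 11 lower (5.39%). B cells had 9 higher (7.79%) and 21 lower (29.3%), and epithelial cells 9 higher (28.2%) and 25 lower (20.3%). None was higher in plasma cells (2.21%), mast cells (4.99%) or basophils (5.63%), with 58 (72.9%), 33 (11.6%) and 20 (6.91%) lower, and erythroid cells had Isg20 alone higher (0.571%) and 49 lower (51.9%). In dendritic cells those higher included Psmb8, Psmb9, Psmb10, Tap1 and Tap2, which cut and carry peptides for antigen presentation.

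Most cells carried few members, and in some types a small number carried many. To compare cells of unequal depth, each cell with at least 2000 UMIs was thinned at random to 2000 UMIs, and the members with a UMI were counted. A cell with 8 or more of the 37 is called interferon-rich below. This is a range on a continuous scale, not a cell type, and the members chose these cells.

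Neutrophils had 240 interferon-rich cells of 1892 (12.7%, 95% exact binomial interval 11.2 to 14.3%), and monocytes and macrophages 194 of 1868 (10.4%, 9.04 to 11.9%). Such intervals treat pooled cells as independent and cover neither the random thinning nor differences between libraries or mice. Dendritic cells had 38 of 493 (7.71%, 5.51 to 10.4%), epithelial cells 75 of 1132 (6.63%, 5.25 to 8.23%) and T cells 52 of 2383 (2.18%, 1.63 to 2.85%). Stromal cells had 7 of 41 (17.1%, 7.15 to 32.1%), plasmacytoid dendritic cells 3 of 92, mast cells 1 of 50 and B cells 4 of 1375 (0.291%). None was seen among 53 erythroid cells, which allows a share of up to 5.66%, among 45 basophils (up to 6.67%), 54 natural killer cells (up to 5.56%) or 440 plasma cells (up to 0.682%). Erythroid cells carried at most 2 members, and plasma cells at most 4. Haemoglobin made up a median of 93.8% of erythroid UMIs, so few of the 2000 UMIs were left in which members could be seen. The erythroid counts are therefore not comparable with those of the other types. Cells with fewer than 2000 UMIs were left out, 600 of them neutrophils, 397 epithelial, 132 T, 97 monocytes and macrophages and 5 dendritic.

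The typical neutrophil, macrophage or monocyte, and dendritic cell carried 3, 3 and 2 members at this depth, a T cell 2 and an epithelial cell 1. The most in a single cell was 26 in T and in epithelial cells, 23 in neutrophils and 20 in macrophages or monocytes and in dendritic cells. Exactly 8 members were carried by 51 neutrophils, 60 monocytes and macrophages, 11 dendritic, 18 T and 23 epithelial cells. Just below, 7 members were carried by 95, 96, 13, 56 and 31 cells. The draw itself moved the counts: over 8 random draws T cells gave 52 to 70 interferon-rich cells, neutrophils 240 to 270, monocytes and macrophages 172 to 199, dendritic cells 34 to 42 and epithelial cells 59 to 75. The draw used here was thus the lowest for T cells and neutrophils and the highest for epithelial cells. Without thinning the shares were 22.4% in neutrophils, 69.8% in monocytes and macrophages, 62.0% in dendritic, 21.5% in T and 24.4% in epithelial cells, in types whose median depths ran from 2951 to 13281.5 UMIs.

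**Figure D3:**
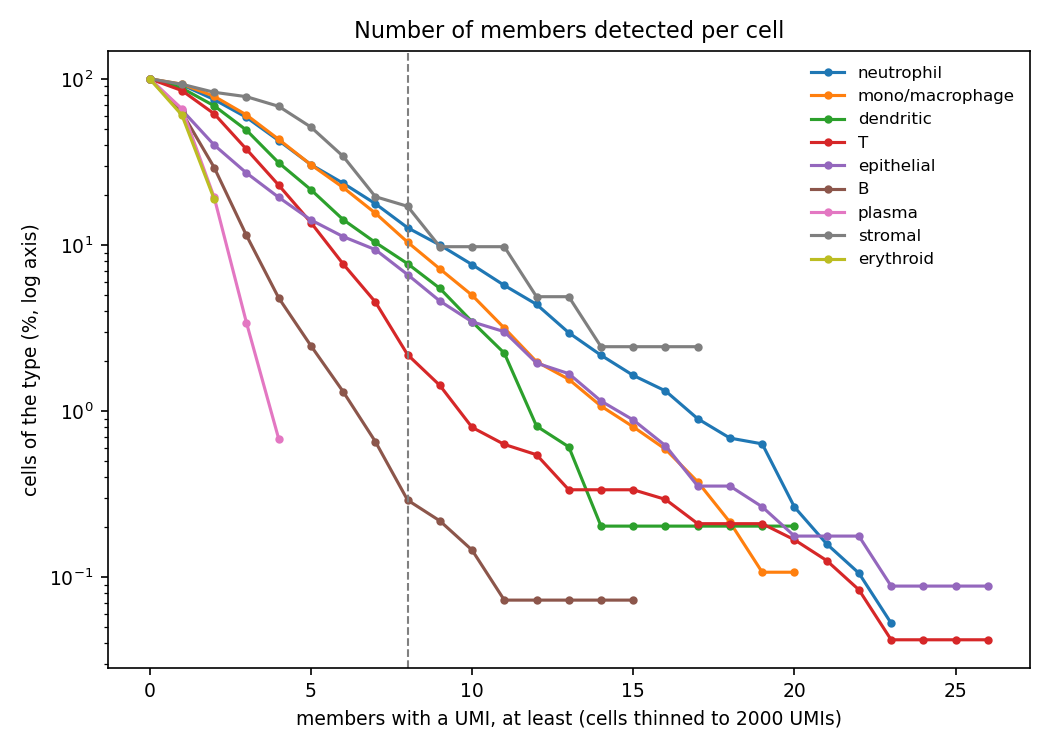
Share of cells of a type (vertical axis, percent, log scale) with at least the number of members on the horizontal axis, after thinning to 2000 UMIs, for 9 cell types (lines), with the limit of 8 members dashed. Neutrophil, monocyte/macrophage, dendritic, T and epithelial cells have tails that reach 20 to 26 members. Erythroid cells, in which most UMIs are haemoglobin and few are left for members, end at 2.

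By library, the share in neutrophils was 7.02%, 20.7%, 13.4% and 12.5% in libraries 1 to 4, the first 2 from 57 and 29 cells. In monocytes and macrophages it was 8.21% in library 3 and 11.1% in library 4, in dendritic cells 4.62% and 9.24%, and in T cells 1.49% and 2.94%. Epithelial cells had 8.47% in library 1 and 6.26% in library 2. The share was thus higher in library 4 than in library 3 for monocytes and macrophages, dendritic cells and T cells, with intervals that overlapped in each case.

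The UMIs not drawn in the thinning gave a second reading of the same cells. In them the summed member level was 12306 CPM in interferon-rich and 2267 CPM in the other neutrophils, a 5.43-fold difference. The fold was 3.41 in monocytes and macrophages (6775 against 1989 CPM), 5.35 in dendritic cells (7654 against 1431 CPM), 5.62 in T cells (6927 against 1232 CPM) and 10.5 in epithelial cells (8137 against 775 CPM). Members above the other cells numbered 37 of 37 in 4 of these types and 36 in T cells, where Ifi44 had 0 UMIs in interferon-rich and 3 in the other cells. Mx1 and Ifi44 in neutrophils and Oasl1 in T cells each rested on 1 such UMI in interferon-rich cells. The share of all genes above the other cells is not given. These values describe the choice of cells and were not tested.

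Among families of more than 1 member, the IFIT genes, whose products bind foreign RNA, had the largest fold in each of the 5 types. It was 35.2 in neutrophils, 18.9 in monocytes and macrophages, 50.5 in dendritic, 21.9 in T and 38.9 in epithelial cells. Without the cell that held most IFIT UMIs in each type it was 30.3, 15.6, 34.4, 17.2 and 25.8 in the same order. That cell held 36.6% of these UMIs in dendritic and 34.6% in epithelial cells. The transcription factors had folds of only 3.32, 3.22, 3.75, 4.13 and 4.68. Ifit1 was at 397 against 8.87 CPM in neutrophils, 79.9 against 4.80 CPM in monocytes and macrophages, 97.1 against 3.34 CPM in dendritic cells, 264.5 against 8.76 CPM in T cells and 212 against 7.33 CPM in epithelial cells. In the other cells of all 5 types Ifit1 was thus at 8.87 CPM or less. Reads of Ifit3 and its near copy Ifit3b can be split, which makes both uncertain.

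The members with the smallest folds differed between types. Bst2 was at 415 CPM in interferon-rich and 308 CPM in the other monocytes and macrophages, the smallest log2 fold in that type (0.43). Ifi35, Irf9 and Oas1a were the smallest in dendritic cells (0.73), epithelial cells (0.96) and neutrophils (0.55). Isg15 was at 3259 against 652 CPM in neutrophils, 853 against 177 CPM in monocytes and macrophages and 1678 against 188 CPM in dendritic cells. In T cells it was at 904 against 70.7 CPM and in epithelial cells at 874 against 38.2 CPM.

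The GTPase folds also differed between types, although reads of close copies in the Gbp cluster can be split. In epithelial cells they had a 14.7-fold higher level in interferon-rich cells, with Iigp1 at 957 against 45.4 CPM, Gbp2 at 770.2 against 29.6 CPM and Gbp5 at 80.1 against 1.21 CPM. A single cell held 50% of these Gbp5 UMIs, and its level was 44.5 CPM without that cell. The GTPase fold was 7.34 in neutrophils, 5.25 in T cells, 4.91 in dendritic cells and 3.17 in monocytes and macrophages. Interferon-rich T cells had Igtp at 634 CPM and Iigp1 at 406 CPM, against 105 and 34.6 CPM. Rsad2 was at 1276 against 95.2 CPM in neutrophils, the highest Rsad2 level of these groups, and Oasl1 at 399 against 14.85 CPM in dendritic cells. A single cell held 70.5% of the Oasl1 UMIs of interferon-rich dendritic cells, and without it Oasl1 was at 126 CPM. Mx1 in interferon-rich T cells rested on 13 UMIs in 5 of 52 cells.

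**Figure D4:**
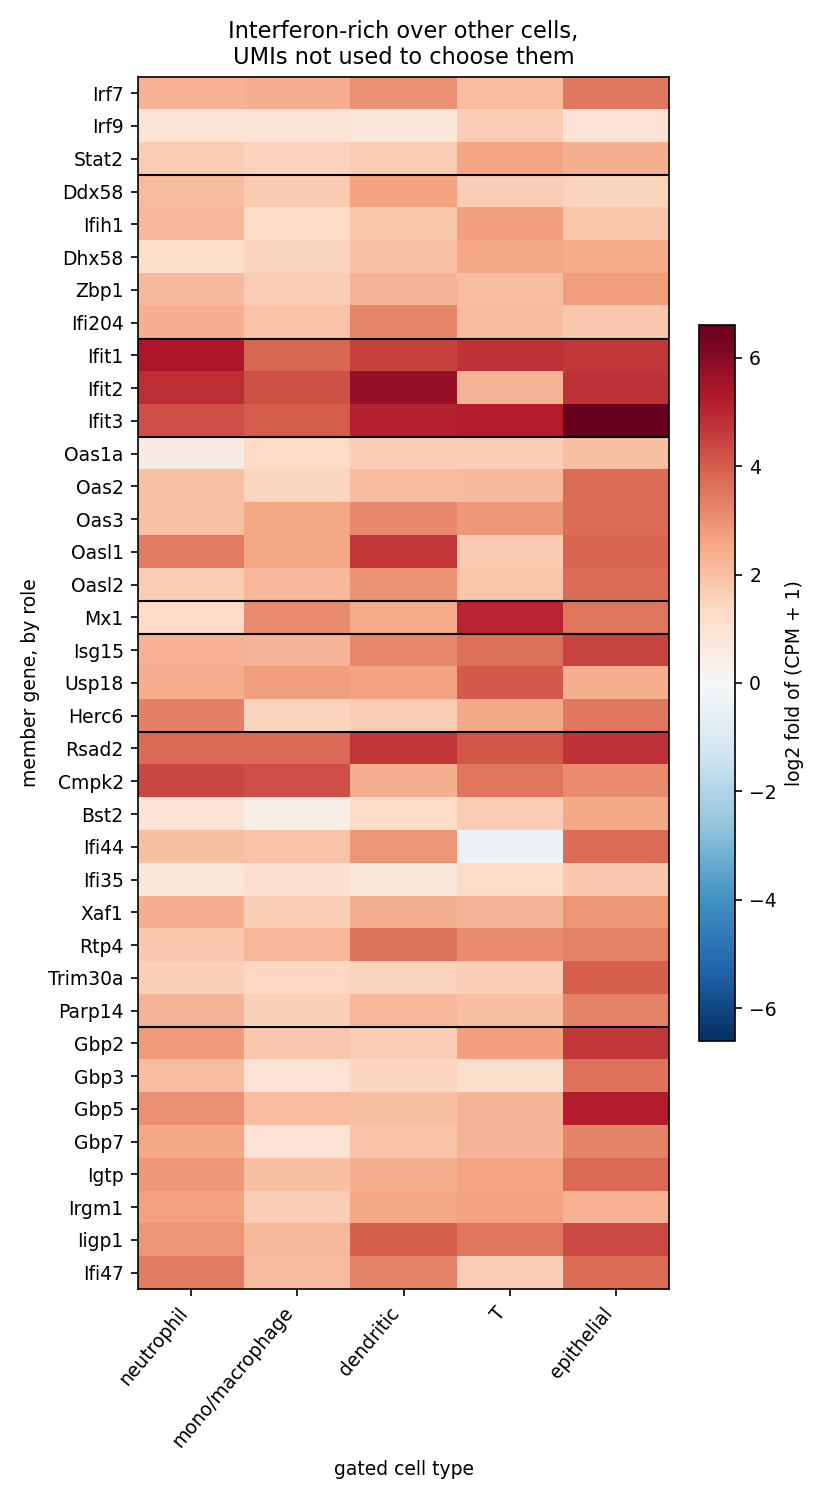
Log2 fold of each member (rows, by role) in interferon-rich over other cells of the same type, from UMIs not drawn in the thinning, for 5 cell types (columns). The IFIT rows hold values up to 6.56 (Ifit3 in epithelial cells, where 1 cell held 55.5% of the UMIs and the value was 5.42 without it), and Bst2 in monocytes and macrophages, at 0.43, is among the palest.

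Interferon-stimulated genes outside the member list were also higher in interferon-rich cells. Some of them, such as Ifit3b and Oas1g, are near copies of members and can share reads with them, so the list is not fully separate from the choice of cells. Of the 65 other interferon-stimulated genes, 37 were at least 2-fold higher in interferon-rich neutrophils and 1 was lower, where 1.80% of all non-member genes were higher and 1.58% lower. Monocytes and macrophages had 40 higher and none lower, against 1.40% and 1.95%. In dendritic cells 39 were higher and 1 lower, against 2.33% and 3.16%, and in T cells 43 and 1, against 1.86% and 0.964%. In epithelial cells 50 were higher and none lower, against 4.28% and 3.15%. Their median log2 folds were 1.41, 1.19, 1.20, 1.57 and 2.02 in these 5 types, and those of all non-member genes lay between -0.14 and 0.01.

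**Figure D5:**
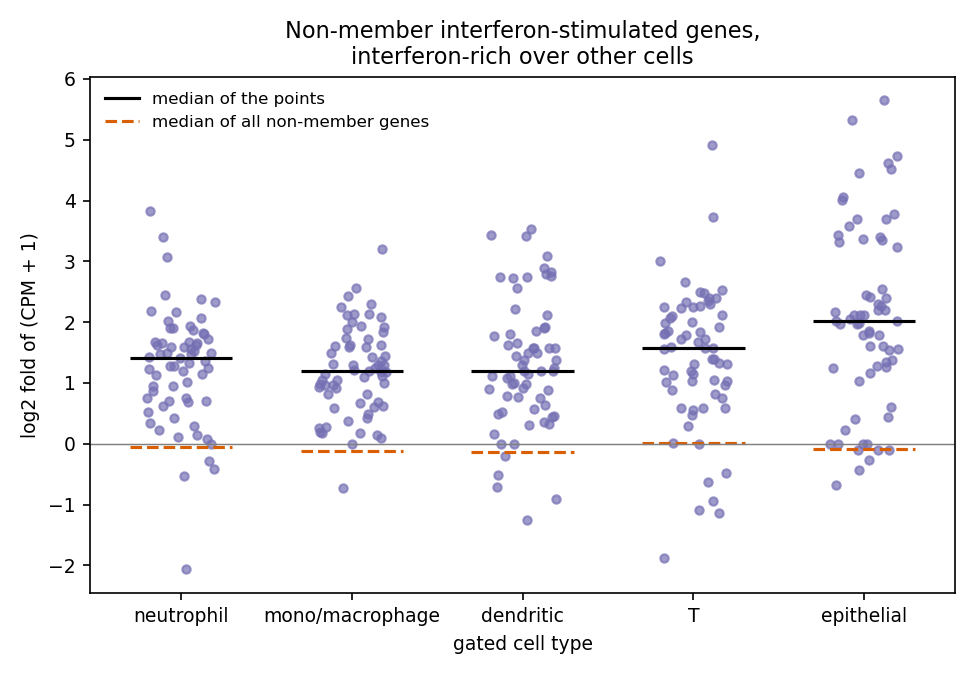
Log2 fold in interferon-rich over other cells for each non-member interferon-stimulated gene of the 65 matched (points), with their median as a black line and that of all non-member genes dashed, in 5 cell types. Each type has 65 points, with medians of 1.41, 1.19, 1.20, 1.57 and 2.02 in neutrophil, monocyte/macrophage, dendritic, T and epithelial cells, and single genes that run from -2.07 in neutrophils to 5.65 in epithelial cells.

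Cxcl10, a chemokine that draws T cells and natural killer cells through CXCR3, was higher in the interferon-rich cells of all 5 types. It was at 3719 against 351 CPM in neutrophils, 3495 against 591 CPM in monocytes and macrophages, 1412 against 210.5 CPM in dendritic cells, 953 against 70.6 CPM in T cells and 1197 against 71.0 CPM in epithelial cells. Socs1, which inhibits the JAK kinases, was at 318 against 71.9 CPM, 213 against 41.1 CPM, 255 against 51.0 CPM, 188 against 78.4 CPM and 174 against 12.4 CPM in the same order. Single cells carried part of this: without the cell that held most of it, Cxcl10 was at 580 CPM in T and 769 CPM in epithelial cells, and Socs1 at 42.4 CPM in epithelial cells. None of the 6 receptor genes was called higher or lower in any of the 5. Ifng was lower in interferon-rich T cells, with 15 UMIs or 56.3 CPM, against 187 CPM in the other T cells.

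The non-member genes with the largest folds overlapped in part between types. Slfn5, a Schlafen family gene, was among the 8 with the largest folds in neutrophils (395 against 46.1 CPM), monocytes and macrophages (386 against 78.1 CPM), T cells (188 against 34.6 CPM) and epithelial cells (137 against 4.20 CPM). Ifit3b was so in neutrophils, monocytes and macrophages and epithelial cells. In neutrophils Olfr56 (39.0 against 1.05 CPM), Mitd1, Gm13822, Cxcl9 and Dtx3l completed the 8. In monocytes and macrophages they were the p200 genes Ifi206, Ifi208 and Ifi213 with Socs1 and Batf2, a transcription factor at 48.9 against 9.50 CPM.

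Dendritic cells had Inhba, which encodes a subunit of activin A, at 451 against 24.6 CPM, a log2 fold of 4.14, but 1 of the 38 cells held 90.0% of its UMIs, and it was at 46.5 CPM without that cell. Clec4e likewise lay mostly in 1 cell (92.6% of UMIs) and was at 8.85 CPM without it, below the 16.5 CPM of the other dendritic cells. Slfn1, Gm4951, Ly6a, Phf11d, Clec4e and Cxcl9 (2242 against 314 CPM) followed. T cells had F830016B08Rik, Ifit1bl1, Isg20, an exonuclease at 210.1 against 36.3 CPM, Irgm2, Daxx and Slfn1. Epithelial cells had Ifit1bl1 at 857 against 20.3 CPM, Slfn4 at 659 against 29.1 CPM, and Cd274, which encodes the checkpoint ligand PD-L1, at 142 against 5.23 CPM, with F830016B08Rik, Slfn1 and Gm4951. Of the epithelial genes, Ifit3b, F830016B08Rik and Slfn1 had 56.6%, 40.7% and 60% of their UMIs in 1 cell each, and were at 56.6, 66.4 and 12.3 CPM without it, against 1.58, 2.62 and 0.275 CPM in the other cells. A higher level in at least 2 libraries that held interferon-rich cells was a condition for being listed here, so it is no separate result.

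Depth and markers of other cell types were compared between interferon-rich and other cells. Median depth was 3009 against 3453.5 UMIs in neutrophils, 11090 against 12247.5 in monocytes and macrophages, 11162.5 against 13653 in dendritic, 4549.5 against 5112 in T and 5748 against 12234 in epithelial cells. The mitochondrial share in epithelial cells was 5.68% against 4.16%. The summed level of the 13 monocyte and macrophage markers had a median of 249 CPM in interferon-rich T cells and 0 CPM in the other T cells. Of the 13, 8 were seen in the interferon-rich T cells. In neutrophils the same markers had medians of 253 and 258 CPM. In monocytes and macrophages their own markers were at a median of 3775 CPM in interferon-rich and 12326 CPM in the other cells. The part of depth and of these markers in the results was not tested.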

How the data were processed

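Single-cell RNA of sorted polyp cells was captured with the 10x Genomics 3′ V3 kit, per the labels' protocols. The authors deposited 1 matrix of raw UMI counts, pooled over 4 libraries. Cell Ranger 3.0.2 and the build mm10 are named in the submitters' processing notes, and the annotation release and counting settings are not given in the sources used here. Barcodes were kept from 200 genes and 500 UMIs upwards when mitochondrial transcripts made up no more than 20%, and 2977 were removed by the mitochondrial limit.

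A cell type was set by the number of its marker genes with a UMI: 5 of 10 for neutrophils, 5 of 13 for monocytes and macrophages, 4 of 10 for dendritic cells, 4 of 8 for plasmacytoid dendritic cells, 4 of 8 for mast cells, 3 of 5 for basophils, 4 of 10 for T cells, 3 of 8 for natural killer cells, 4 of 9 for B cells, 5 of 8 for plasma cells, 4 of 12 for epithelial cells, 3 of 16 for stromal cells and 4 of 8 for erythroid cells. These limits were set after marker counts, not members, were seen, so a type name means cells that resemble that type by markers. Cells in several gates (1312, among them 608 neutrophil with monocyte/macrophage) were left out as possible doublets, except that natural killer, basophil and plasma cells could also pass the T, mast and B gates, and no doublet caller was run. Another 1579 cells passed no gate. Clusters (scanpy 1.11.5, 2000 variable genes, 30 components, 15 neighbours, Leiden resolution 1) served as an alternative to the gates.

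UMIs were summed per type and divided by the type's total (CPM); no replicate exists, so no test was made. Fully described in each type are the 3 members with the largest fold, among those with at least 10 UMIs, and the 3 with most UMIs. The widest-ranging member of each role is also described. So are the 8 non-member genes with the largest fold in interferon-rich cells of a type, among those with at least 20 UMIs there. These 8 also had to be higher in interferon-rich cells in at least 2 libraries. The members and gene lists were chosen with earlier results of these data known. Thinning drew UMIs without replacement with a fixed seed. The calling and thinning code was tested on simulated data. Alternatives changed the mitochondrial limit, gates, libraries, added CPM, minimum UMIs, reference, thinned depth and member limit. Python 3.11.15, numpy 2.4.6 and scipy 1.17.1 were used.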

Additional observations from a re-analysis of the deposited data

Results flagged for a closer look

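Interferon-rich cells were also seen among barcodes that no comparison of cell types used. Among cells that passed several gates, 112 of 1289 with at least 2000 UMIs were interferon-rich (8.69%, 95% exact binomial interval 7.21 to 10.4%), with 4.07% in library 3 and 11.1% in library 4. Among cells in no gate the share was 60 of 616 (9.74%, 7.52 to 12.4%), with 5.49% in library 3 and 11.8% in library 4. Among barcodes above the mitochondrial limit it was 45 of 789 (5.70%, 4.19 to 7.56%). They were listed because a signal was seen in barcodes outside every comparison, and no sample served as a control for it.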

How the results depend on the processing

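No paired analysis was possible because each labelled group is 1 sample and the labels carry no replicate numbers. The main results are counts and shares with no sign, and 118 of 147 alternative values of them stayed within their limits. Adding 10 CPM in place of 1 lowered the members higher from 7 to 4 in dendritic cells, from 2 to 1 in T cells and from 4 to 1 in epithelial cells. Leaving out each library in turn gave 1 to 3 members higher in T cells, the lowest without library 4, and shares of interferon-rich cells of 1.47 to 2.89% in T cells, 8.35 to 11.1% in monocytes and macrophages and 5.03 to 9.38% in dendritic cells, each lowest without library 4. No value could be given where under 50 cells were left: stromal and erythroid cells without library 1 or 2, basophils without any library, natural killer cells without library 3 or 4, and plasmacytoid dendritic and mast cells without library 4. The share of interferon-rich cells depends on its definition. In neutrophils, monocytes and macrophages, dendritic, T and epithelial cells it was 5.33, 2.47, 1.21, 0.564 and 2.71% after thinning to 1000 UMIs, 22.4, 69.8, 62.0, 21.5 and 24.4% with no thinning, so that neutrophils, first of the 5 when thinned, came below monocytes and macrophages, dendritic and epithelial cells without thinning, and 7.61, 4.98, 3.45, 0.797 and 3.45% from 10 members. From 7 members it was 17.7, 15.5, 4.53 and 9.36% in neutrophils, monocytes and macrophages, T and epithelial cells. Another random draw, tried after the data were seen, gave 14.3% in neutrophils and 2.94% in T cells. Depth limits types with few cells, in which many members had under 10 UMIs.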

Other observations

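Libraries 3 and 4, which could not be matched to labelled samples, differed in member level within several cell types. The level was higher in library 4 for 31 of 37 members in neutrophils, where 63.7% of all expressed genes seen were higher there, for 30 in monocytes and macrophages (51.0% of genes), 31 in dendritic cells (51.6%) and 29 in T cells (68.4%), but for 18 in B cells (55.1%). The summed level was 3081 and 3789 CPM in neutrophils of libraries 3 and 4, 2113 and 2594 CPM in monocytes and macrophages, 1337 and 2150.4 CPM in dendritic cells and 1212 and 1569 CPM in T cells. Plasmacytoid dendritic cells went the other way in the sum, at 6078 and 4594 CPM, where Bst2 was at 4795 and 3181 CPM.

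Some genes were lower in interferon-rich cells, and those named here were chosen after their values were seen. The number of cells that held their UMIs and their levels by library are not given, so a few cells could carry these differences. In neutrophils the granule genes Camp and Ngp were at 1.22 and 43.9 CPM in interferon-rich cells and at 309 and 951 CPM in the others. In monocytes and macrophages Spp1, which encodes osteopontin, was at 139 against 675 CPM. In dendritic cells Top2a and Pclaf, which are expressed in dividing cells, were at 6.42 and 2.14 CPM against 76.2 and 60.5 CPM. In T cells Il22, a cytokine that acts on gut epithelium, had no UMI in interferon-rich cells and was at 123 CPM in the others. In epithelial cells the Paneth cell defensin Defa24 was at 4.86 against 722 CPM and the enteroendocrine hormone Pyy at 1.21 against 260.2 CPM.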
